A study of Mus musculus with 6 samples.

Results

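The genes described here are 9 components of interferon signalling: the receptor chains Ifnar1 and Ifnar2, the transcription factor genes Stat2, Irf9, Irf1, Irf2, Irf3 and Irf7, and the feedback inhibitor gene Usp18. All probe sets that the platform annotation maps to 1 of these symbols alone were taken, which gave 16 probe sets for the 9 genes, out of 34945 probe sets with a single symbol for 18193 genes. A probe set is the group of short probes that the array reads as 1 transcript signal. The study used AtT-20 cells, an established mouse corticotroph tumour cell line, and lowered Dnmt1, the methyltransferase that maintains DNA methylation through replication. Cells received 20 nM siRNA again and again for 8 days, either siDNMT1 (directed at Dnmt1) or siNT (a non-targeting siRNA), and both groups were therefore transfected with double-stranded RNA. An untransfected group was not analysed here. There were 3 arrays of siDNMT1 and 3 of siNT, 1 of each from every independent repeat of the experiment. The comparison asks which transcripts differ when Dnmt1 is reduced.

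Type I interferons bind a receptor made of IFNAR1 and IFNAR2, whose Janus kinases phosphorylate STAT proteins. STAT2, a partner STAT and IRF9 form the complex ISGF3, which binds the interferon-stimulated response element (ISRE) of target genes, among them the gene of IRF7. IRF3 and IRF7 act one step earlier, switching on interferon genes once nucleic acid sensors fire, while IRF1 activates and IRF2 mostly represses overlapping promoters. USP18 removes the ubiquitin-like protein ISG15 from its targets and blocks signalling at IFNAR2. In several cell types, loss of DNA methylation is known to raise interferon-stimulated genes through double-stranded RNA from derepressed repeats.

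DNA methylation in mammals sits mainly on CpG dinucleotides, so the windows around the annotated start sites are shown with every CpG in capitals for the 4 genes that have such a window and at least 1 probe set on which the arrays of the 2 groups did not overlap. Each window runs from 250 bases before to 50 bases after a start site, in the RefSeq table of build GRCm38.p6, and is written 5′ to 3′ along the gene. Of the 9 genes 8 matched that table, with 10 windows in all, and Usp18 has no entry.
Irf9 chr14:55603735-55604034 (+ strand): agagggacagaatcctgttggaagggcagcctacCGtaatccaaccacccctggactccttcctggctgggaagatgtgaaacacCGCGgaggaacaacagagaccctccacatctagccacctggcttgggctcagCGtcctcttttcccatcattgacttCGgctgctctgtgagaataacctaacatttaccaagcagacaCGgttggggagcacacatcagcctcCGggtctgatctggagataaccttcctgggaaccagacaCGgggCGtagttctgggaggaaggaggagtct
Irf7 chr7:141266375-141266674 (- strand): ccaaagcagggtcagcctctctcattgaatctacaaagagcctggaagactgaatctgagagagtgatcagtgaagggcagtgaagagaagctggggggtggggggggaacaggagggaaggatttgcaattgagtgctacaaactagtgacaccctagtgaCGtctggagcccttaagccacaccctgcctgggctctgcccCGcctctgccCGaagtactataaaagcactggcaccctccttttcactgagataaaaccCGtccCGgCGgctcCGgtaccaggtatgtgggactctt
Irf3 chr7:44997398-44997697 (+ strand): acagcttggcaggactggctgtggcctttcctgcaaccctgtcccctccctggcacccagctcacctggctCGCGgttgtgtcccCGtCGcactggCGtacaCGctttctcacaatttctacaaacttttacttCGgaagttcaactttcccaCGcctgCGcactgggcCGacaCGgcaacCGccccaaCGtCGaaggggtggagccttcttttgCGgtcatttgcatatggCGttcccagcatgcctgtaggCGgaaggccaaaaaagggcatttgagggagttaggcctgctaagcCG
Ifnar1 chr16:91484965-91485264 (+ strand): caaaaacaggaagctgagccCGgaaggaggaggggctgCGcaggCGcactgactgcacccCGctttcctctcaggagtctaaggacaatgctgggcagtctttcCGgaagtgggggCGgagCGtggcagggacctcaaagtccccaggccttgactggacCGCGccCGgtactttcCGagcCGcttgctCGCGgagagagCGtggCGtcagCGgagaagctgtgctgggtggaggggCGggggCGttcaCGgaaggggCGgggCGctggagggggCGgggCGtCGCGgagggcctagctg
The Irf9 and Irf7 windows held 9 and 7 CpGs, close to the median of 7 over all 32817 windows of the table (quartiles 3 and 20). A further Irf9 window, at chr14:55604329-55604628, held 1. The Irf3 window held 18 CpGs and the Ifnar1 window 26. The windows of Stat2, Irf2 and Ifnar2 held 22, 19 and 18, and those of Irf1 32 and 43. Methylation itself was not measured.

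The same windows were searched on both strands for 2 motifs: the ISRE core, GAAANNGAAA, and the core of the gamma-activated site (GAS) bound by STAT dimers, TTCNNNGAA. Every match in the 10 windows is shown in capitals with up to 10 bases on either side, written along the gene, so that the Stat2 match, on the other strand, reads as the reverse complement.
Stat2, ISRE core, chr10:128270276-128270285: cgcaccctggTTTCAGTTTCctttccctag
Irf2, ISRE core, chr8:46739504-46739513: tggggaagtGAAAATGAAAttgacttttc
Irf1, GAS core, chr11:53769924-53769932: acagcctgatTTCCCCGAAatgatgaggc
Irf2, GAS core, chr8:46739521-46739529: aaattgacttTTCCGAGAAatgatgaaag
Ifnar1, GAS core, chr16:91485210-91485218: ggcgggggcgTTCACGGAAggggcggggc
Ifnar2, GAS core, chr16:91372569-91372577: tgccaaggccTTCCTGGAAgaagagagta
The ISRE core was found in 2 of the 10 windows, those of Stat2 and Irf2, against 3.43% of all windows in the table. The GAS core was found in 4, those of Irf1, Irf2, Ifnar1 and Ifnar2, against 8.29% of all windows. In Irf2 the matches lie close to each other and do not overlap. The windows of Irf3, Irf7 and Irf9 held neither set of letters.

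Signals are given after each array was scaled to a common median, and differences are siDNMT1 minus siNT on the log2(scaled signal + 5.29) scale, which understates differences of dim probe sets. Dnmt1 itself held 39.6%, 20.2% and 48.6% of its paired control signal in repeats 1, 2 and 3 on the brightest probe set. Its difference was -1.54 (SE 0.24), with an adjusted p of 0.151 in limma, and it fell with an adjusted p of 0.0211 once the repeat number was a block in the limma fit. Median deposited signals ran from 20.3 to 36.3 on siDNMT1 arrays and from 19.8 to 33.2 on siNT arrays, with both arrays of repeat 2 the brightest. Of 6 corticotroph markers 5 passed the filter that left out dim probe sets, with summed signals of 8437 to 13409 in siDNMT1 and 9866 to 13486 in siNT. Of these, 2 were higher and 3 lower in siDNMT1, with a median difference of -0.15. By brightest probe set the differences were -0.36 for Crhr1 (the corticotropin-releasing hormone receptor, lower in 3 of 3 repeats), -0.35 for Neurod1, -0.15 for Pomc, 0.08 for Pcsk1 and 0.02 for Tbx19. The dimmer Crhr1 probe set differed by -0.82 (SE 0.28) with no overlap of the groups and a limma adjusted p of 1.00, or 0.175 with the block. Of 8 macrophage markers 5 passed the filter, with summed signals of 451 to 543 in siDNMT1 and 501 to 534 in siNT, and both probe sets of Ptprc, the pan-leukocyte gene, fell below it. Summed signals of the 5 lymphocyte markers above the filter, of 8 listed, were 246 to 273 in siDNMT1 and 303 to 385 in siNT. These ranges do not overlap, with 1 gene higher and 4 lower. The brightest, Cd8a, had means of 150 in siDNMT1 and 206 in siNT (difference -0.46). Its probe set has the suffix of probes that may bind other transcripts. Other tested Cd8a probe sets differed by -0.19, with overlap, and by 1.17, without overlap but with a siNT mean of 9.61, below the filter. Cd3e differed by -1.77, 1.43 and -1.92 in repeats 1, 2 and 3. For 6 of 8 fibroblast markers the sums were 190 to 237 in siDNMT1 and 157 to 201 in siNT, with 4 higher and 2 lower. These differences ran from -0.10 for Fbln1 to 1.26 for Pdgfra, of which another probe set, below the filter, differed by -0.55. The siNT means of Pdgfra and Lum, 13.1 and 15.7, lay below the filter of 16.8. Only the siDNMT1 arrays, with means of 34.3 and 22.1, brought these 2 genes into the sums and the count of higher genes. No marker was at 0, but without detection calls this does not show that a marker gene was expressed. Nor do the signals show that leukocytes or fibroblasts were present in this cell line. The part of the markers in the values below was not tested. In bulk RNA, fewer cells of a type and less RNA per cell cannot be told apart.

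Of the 16 probe sets, that of Irf9, the DNA-binding subunit of ISGF3, had the largest mean difference in the fit without the block. Probe set 1421322_a_at, whose suffix marks probes shared by transcripts of 1 gene, gave scaled signals of 59.5, 67.9 and 72.8 in siDNMT1 repeats 1, 2 and 3, against 31.5, 47.9 and 29.8 in siNT. All 3 siDNMT1 arrays lay above all 3 siNT arrays, and the siDNMT1 arrays were closer to each other than the controls were. The means were 66.7 ± 6.74 in siDNMT1 and 36.4 ± 10.02 in siNT (SD, n = 3), and the siDNMT1 signal was 189%, 142% and 244% of its paired control. The log2 difference was 0.81 (SE 0.25), and its limma adjusted p over all tested probe sets was 1.00 without and 0.367 with the repeat number as a block. An exact two-sided permutation test of 3 arrays against 3 gave 0.1, the smallest p it allows. Irf9 therefore did not pass the threshold, although its direction was the same in 3 of 3 repeats under every scaling tried.

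Stat2, the partner of IRF9 in ISGF3, showed no such separation. The brighter of its 2 probe sets, 1450403_at, gave 64.1, 51.8 and 44.5 in siDNMT1 and 53.4, 57.6 and 45.5 in siNT. The arrays overlapped fully, with a log2 difference of 0.02 (SE 0.23) and limma adjusted p = 1.00. On the dimmer probe set, 1421911_at, the signals were 42.5, 36.9 and 17.9 in siDNMT1 and 15.3, 42.8 and 40.4 in siNT, so that siDNMT1 was higher in repeat 1 and lower in repeats 2 and 3. Its log2 difference of 0.02 (SE 0.40) averages over opposite values of 1.21, -0.19 and -0.98 in repeats 1, 2 and 3. Both probe sets derive from the same Stat2 sequence record in the annotation.

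Usp18, the ISG15 protease and feedback inhibitor at IFNAR2, also had separated arrays. Probe set 1418191_at gave 314, 575 and 324 in siDNMT1, against 220, 273 and 308 in siNT. The groups did not overlap, but the gap in repeat 3 was narrow and repeat 2 stood well above the rest. The siDNMT1 signal was 143%, 210% and 105% of its paired control, a log2 difference of 0.55 (SE 0.24) with a limma adjusted p of 1.00, or 0.473 in the fit with the block. Without siDNMT1 array 2 the difference was 0.26. Without repeat 3, limma with the block gave 0.78 and an adjusted p of 0.0214, a call that rests on 2 pairs, in a fit that called 261 of all tested probe sets (0.966%). In the deposited signals before any scaling, repeat 3 turned to -0.01 on the log2 scale, so that 2 of 3 repeats were higher.

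The receptor genes gave probe sets that went different ways. Ifnar1, the chain that docks the kinase TYK2, had scaled signals of 147, 194 and 178 in siDNMT1 on its brighter probe set, 1449026_at, against 192, 219 and 206 in siNT. Each siDNMT1 value was below its own control, though siDNMT1 repeat 2 lay just above control repeat 1. The log2 difference was -0.25 (SE 0.18), with a limma adjusted p of 1.00, and it was -0.14 without siDNMT1 array 1. Its dimmer probe set, 1442222_at, went the other way, with 45.1, 45.9 and 41.7 in siDNMT1 and 31.4, 31.0 and 28.9 in siNT. These groups did not overlap, and the per-repeat differences of 0.46, 0.50 and 0.46 were nearly the same in the 3 repeats. The mean of 0.47 (SE 0.24) had a limma adjusted p of 1.00, or 0.690 with the block.

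Ifnar2, the chain that binds interferon most tightly and that USP18 docks on, had 3 probe sets and no shared direction. The brightest, 1451462_a_at, gave 358, 275 and 350 in siDNMT1 and 252, 405 and 364 in siNT, a log2 difference of -0.03 (SE 0.21) that turned to 0.028 with trimmed mean scaling and to 0.041 with quantile scaling. Probe set 1427691_a_at gave 11.1, 35.6 and 60.9 in siDNMT1, against 56.2, 51.0 and 40.3 in siNT. Its difference of -0.61 (SE 0.43) turned on single arrays: it was -0.055 without siDNMT1 array 1 and -1.07 without siDNMT1 array 3. With the block it was 0.038 without repeat 1 and -1.19 without repeat 3. On the third, 1440169_x_at, whose suffix marks probes that may bind other transcripts, the difference was 0.15 (SE 0.30). Every Ifnar2 probe set had overlapping groups and a limma adjusted p of 1.00.

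**Figure D1:**
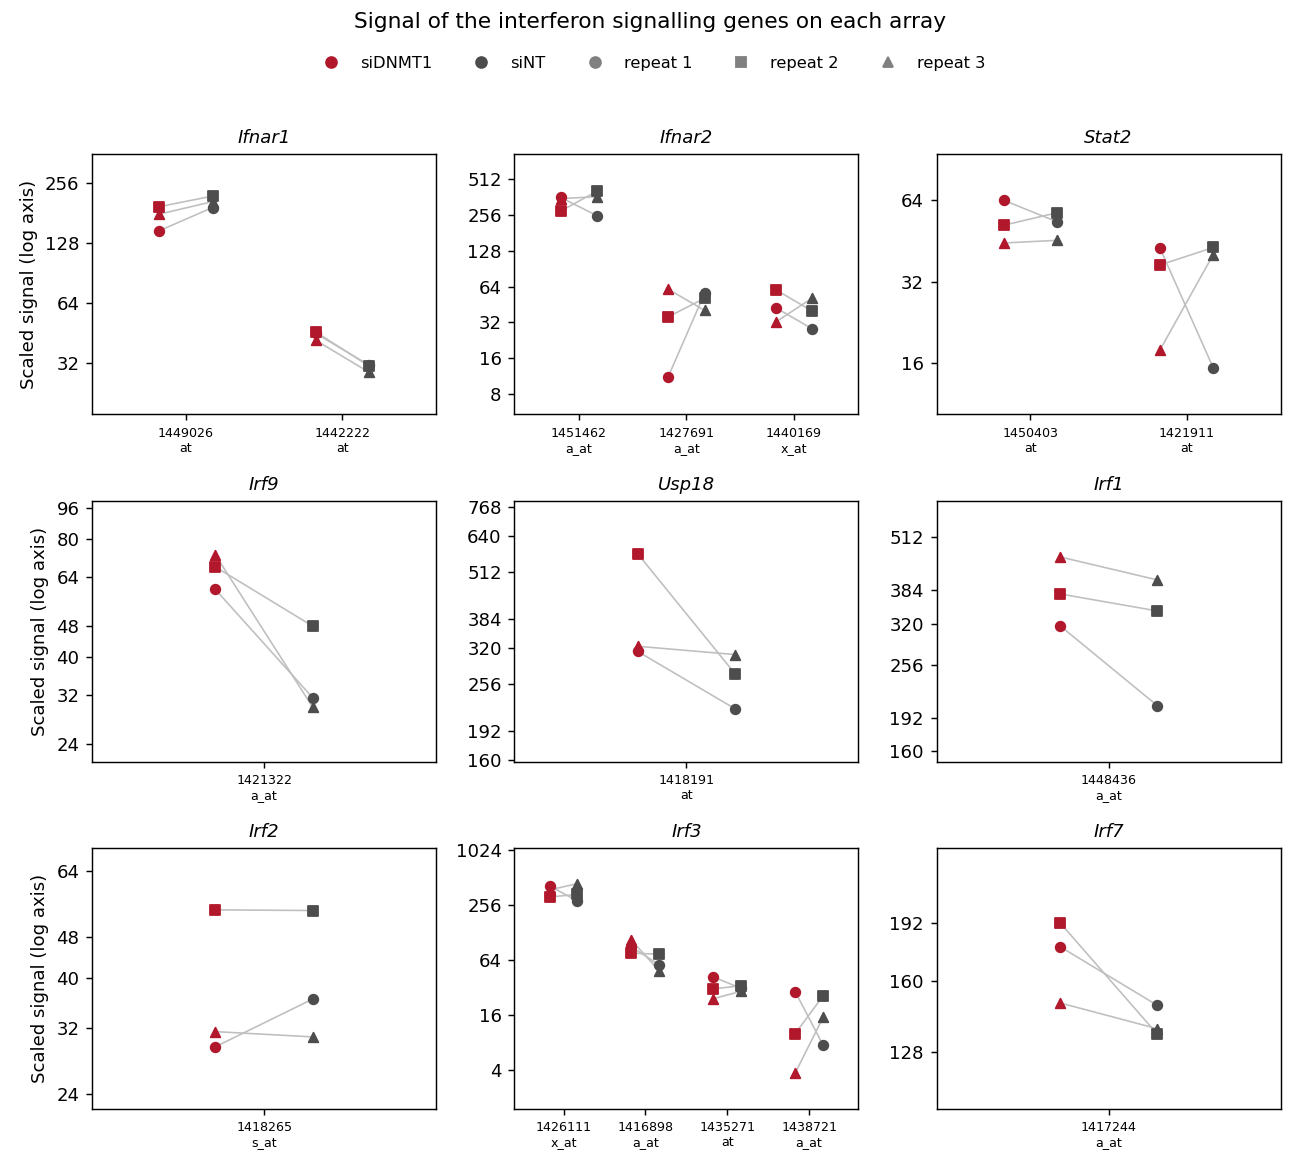
Scaled signal (log axis, own range per panel) of the 16 probe sets of the 9 interferon signalling genes on each of the 6 arrays, siDNMT1 left in red and siNT right in grey, with a line joining the arrays of 1 repeat. All siDNMT1 points lie above all siNT points for Irf9, Usp18, Irf7, the dimmer Ifnar1 probe set and Irf3 1416898_a_at, whereas Stat2, Irf2 and Ifnar2 points overlap.

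Among the interferon regulatory factors, IRF1 is an activator induced by interferon through GAS elements, and its window above holds one such core. Irf1, on 1448436_a_at, gave 317, 376 and 460 in siDNMT1, against 205, 343 and 406 in siNT. Each repeat was higher in siDNMT1, while the groups overlapped because the repeats differed more from one another than the siRNAs did. The log2 difference was 0.31 (SE 0.25), with per-repeat values of 0.61, 0.13 and 0.18 and a limma adjusted p of 1.00, or 0.653 with the block. It was 0.026 without control array 1, 0.17 without siDNMT1 array 3 and 0.51 without control array 3.

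Irf2, which competes with IRF1 for the same sites, differed little. Probe set 1418265_s_at, whose suffix marks probes shared by transcripts of more than 1 gene, gave 29.5, 54.0 and 31.6 in siDNMT1 and 36.5, 53.9 and 30.8 in siNT. Repeat 2 was high in both groups alike. The log2 difference was -0.08 (SE 0.30), and its sign changed without siDNMT1 array 1, siDNMT1 array 3 or control array 2 (0.066, 0.024 and 0.13).

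Irf3, the constitutive factor that sensors activate by phosphorylation, had 4 probe sets that disagreed. The brightest, 1426111_x_at, has the suffix of probes that may bind other transcripts. Its signals were 419, 316 and 379 in siDNMT1 and 285, 338 and 443 in siNT, a log2 difference of 0.08 (SE 0.20). On 1416898_a_at they were 89.7, 76.9 and 106 in siDNMT1, against 57.2, 74.5 and 49.1 in siNT. This second probe set separated the groups, by a margin of only 76.9 to 74.5, with a log2 difference of 0.56 (SE 0.23) and a limma adjusted p of 1.00 without and 0.578 with the block, and with the block but without repeat 3 the difference was 0.32. The third, 1435271_at, differed by 0.01 (SE 0.29). The fourth, 1438721_a_at, was the only one of the 16 probe sets below the filter and was not tested; its signals were 29.0, 10.1 and 3.74 in siDNMT1 and 7.54, 26.05 and 15.2 in siNT.

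Irf7, the inducible factor that amplifies interferon production and is itself a target of ISGF3, gave 178, 192 and 149 in siDNMT1 on 1417244_a_at, against 148, 135 and 138 in siNT. The groups were separated by a hair, 149 in siDNMT1 repeat 3 against 148 in control repeat 1, and with trimmed mean or quantile scaling they overlapped. The siDNMT1 signal was 120%, 142% and 109% of its paired control. The log2 difference of 0.29 (SE 0.18) had a limma adjusted p of 1.00, or 0.718 with the block, and with the block but without repeat 2 the difference was 0.19.

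**Figure D2:**
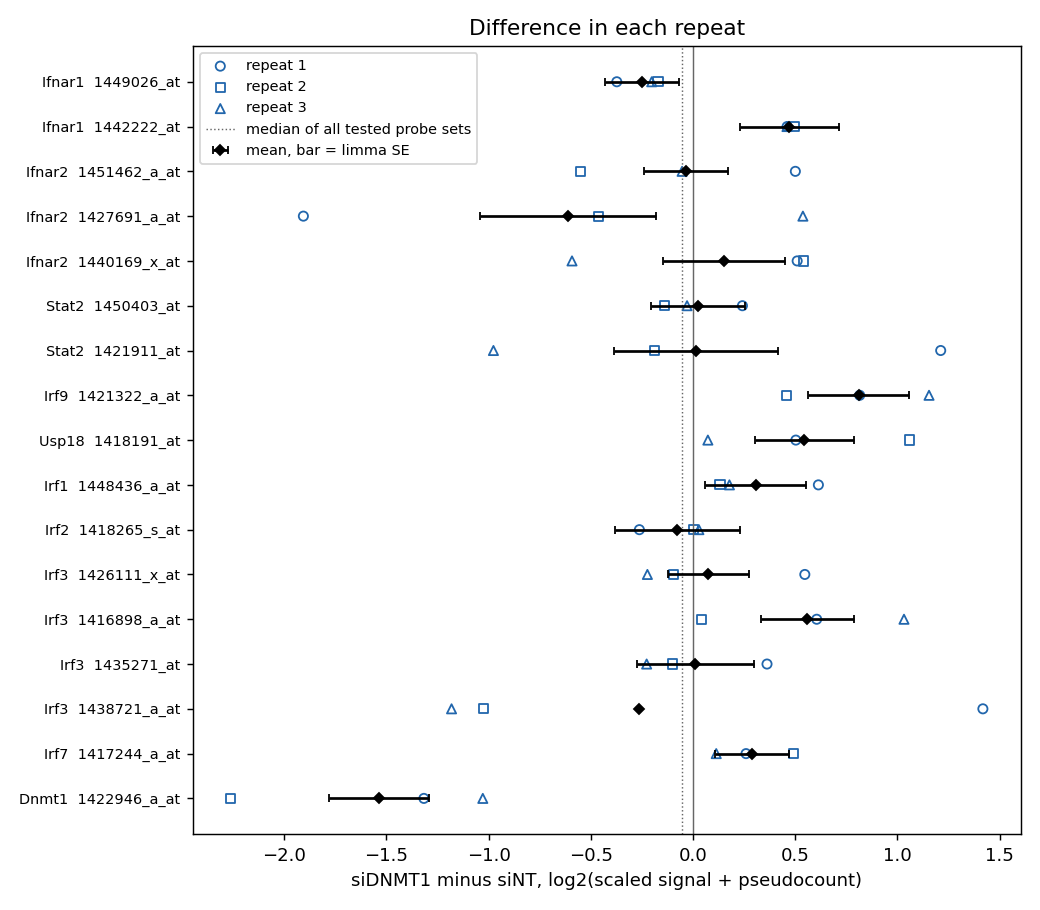
siDNMT1 minus siNT on the log2(scaled signal + pseudocount) scale for each probe set, by repeat (open symbols), with the mean and limma SE (black), and Dnmt1 in the last row; the dotted line is the median of all tested probe sets, -0.06. Irf9 and the dimmer Ifnar1 probe set lie right of 0 in every repeat, and Ifnar2 1427691_a_at, Stat2 1421911_at and Irf3 1438721_a_at (no SE, below the filter) spread over both sides.

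Taken over the 16 probe sets, 11 had higher and 5 lower values in siDNMT1, against 40.8% of all 27022 tested probe sets with a difference above 0. Of the 15 tested, 11 were higher and 4 lower. That share is for median scaling, under which the median difference of all tested probe sets was -0.06. It was 0.002 with trimmed mean and -0.006 with quantile scaling. The 2 groups did not overlap, with siDNMT1 higher, on 5 probe sets, those of Irf9, Usp18, Irf7, Ifnar1 1442222_at and Irf3 1416898_a_at, and on 0 with siDNMT1 lower. Over all tested probe sets the shares were 2.96% higher and 5.78% lower. All 3 repeats were higher on 6 of the 16, against 10.1% of all tested probe sets, and all 3 were lower on 1, Ifnar1 1449026_at, against 19.2%. By brightest probe set 6 genes were higher and 3 lower, with a median of 0.08 beside -0.06 for all tested probe sets. No probe set of the 9 genes passed the adjusted threshold of 0.05 in limma without the block, where 0% of all tested probe sets did, or with it, where 0.0851% did. At an unadjusted limma p under 0.05 there were 3 without the block, Irf9, Usp18 and Irf3 1416898_a_at, all higher, against 1.32% of all tested probe sets higher and 2.47% lower. With the block the same 3 were past it, against 2.45% of all tested probe sets higher and 5.39% lower. With trimmed mean or quantile scaling 4 probe sets were separated upwards and Ifnar1 1449026_at downwards, and the shares over all tested probe sets were then 5.01% and 4.80% upwards and 3.93% and 4.41% downwards. Without scaling 0 of the 16 were separated either way, against 1.13% upwards and 1.06% downwards.

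The size of the differences did not follow the depth of the knockdown in a common way. Dnmt1 was lowest in repeat 2, the repeat in which Usp18 and Irf7 differed most (1.06 and 0.49) and Irf9 and Irf3 1416898_a_at least (0.46 and 0.04). In repeat 3, with the most Dnmt1 left, Irf9 differed by 1.15 and Usp18 by 0.07. Irf1 differed most in repeat 1. With 3 repeats no relation can be tested.

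Ratios of 2 probe sets on the same array do not depend on the scaling, and 4 were computed after the values above had been seen. Irf9 over Stat2, the 2 measured parts of ISGF3, had log2 ratios of -0.11, 0.39 and 0.71 in siDNMT1, against -0.76, -0.27 and -0.61 in siNT. The groups did not overlap, and the mean ratio was higher by 0.88 in siDNMT1, with all 3 repeats in that direction. The dimmer over the brighter Ifnar1 probe set gave -1.71, -2.08 and -2.10 in siDNMT1 and -2.62, -2.82 and -2.83 in siNT, a difference of 0.80 that was again free of overlap. For both, the exact two-sided permutation p was 0.1, the smallest possible, and 0.2 after Benjamini-Hochberg adjustment over the 4 ratios. Irf3 1416898_a_at over 1426111_x_at differed by 0.52, of which 1.34 in repeat 3 and 0.09 and 0.14 in repeats 1 and 2 (exact permutation p = 0.2, adjusted 0.267), and Irf1 over Irf2 by 0.40 (exact permutation p = 0.4, adjusted 0.4). Such ratios show unequal differences of the 2 probe sets, not which one moved.

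**Figure D3:**
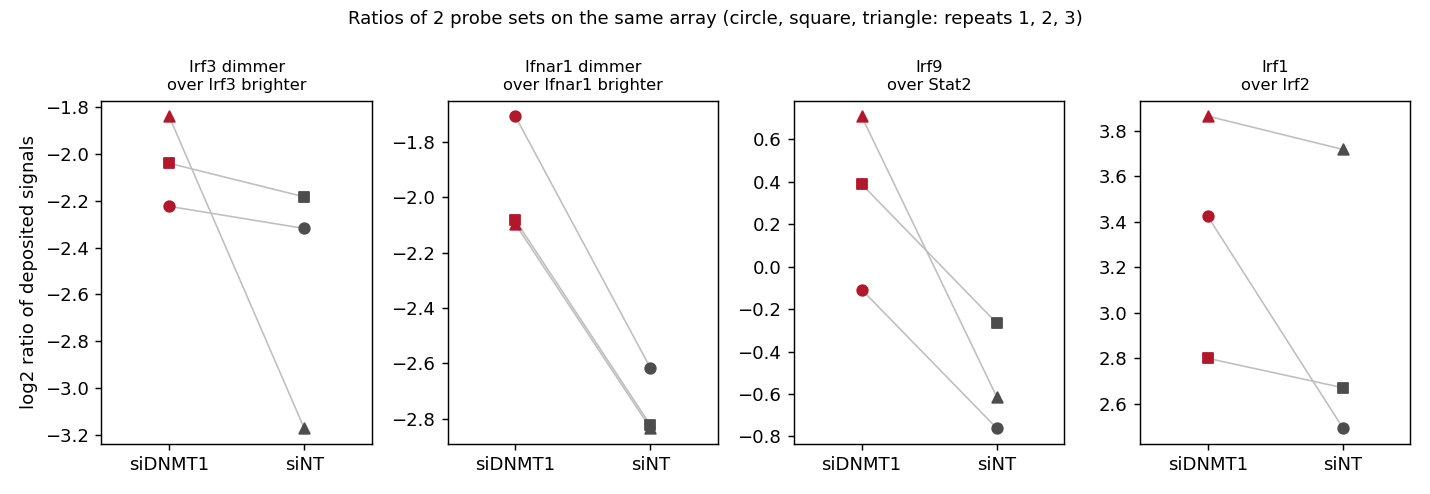
log2 ratios of deposited signals of 2 probe sets on the same array, siDNMT1 left and siNT right, with lines joining the arrays of a repeat and an own axis per panel. The Ifnar1 and the Irf9 over Stat2 ratios lie higher on every siDNMT1 array than on any siNT array; the Irf3 and Irf1 over Irf2 ratios overlap.

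The 5 tested probe sets of other genes whose log2 values followed Irf9 most closely over the 6 arrays were those of D930003E18Rik, Trip10, Psmb10, Lef1 and Tent5b, with Pearson coefficients of 0.987, 0.985, 0.980, 0.979 and 0.977. These points share the 2 groups and the 3 repeats, and all tested probe sets with a single symbol other than Irf9 were searched, so the coefficients only describe likeness. Psmb10, a subunit of the interferon-inducible immunoproteasome, had signals of 154, 152 and 157 in siDNMT1, against 117, 142 and 116 in siNT. Like Irf9 it was highest among the controls in repeat 2. Its log2 difference was 0.29 (SE 0.18), smaller than the 0.81 of Irf9.

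The rest of the pathway was read from 8 lists of 96 genes, each gene by its brightest tested probe set, and no listed gene passed the limma threshold with or without the block. For comparison, 2.96% of all tested probe sets were separated upwards and 5.78% downwards. Of 15 interferon ligand genes 9 had a probe set and 3 passed the filter, with Ifnb1 at 0.38 (SE 0.32), Ifna1 at -0.40 (SE 0.28) and Ifnab at -0.06 (SE 0.38). The Ifna1 and Ifnab probe sets carry the _x_at suffix, so their probes may bind other transcripts. Among the 7 genes of other receptor chains and Janus kinases, 3 were higher and 4 lower (median -0.02). Jak1, the kinase bound to IFNAR2, had scaled signals of 23.2 ± 6.04 in siDNMT1 and 38.8 ± 8.51 in siNT (SD, n = 3), without overlap, and a difference of -0.64 (SE 0.31). Il10rb, a chain of the type III interferon receptor, differed by 0.29 (SE 0.19) and Ifnlr1, its partner, by 0.47 (SE 0.45). Of 4 tested other STAT genes 3 were higher (median 0.15), with Stat5a at 0.34 (SE 0.21), Stat5b at 0.14 (SE 0.19) and Stat3 at 0.16 (SE 0.22). The 6 other IRF genes and IRF2 partners split evenly, 3 higher and 3 lower, with Irf5 at -0.41 (SE 0.27), Irf4 at 0.46 (SE 0.36) and Irf2bp1 at -0.18 (SE 0.18).

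Inhibitors of JAK-STAT signalling, a list of 12, were higher in 5 and lower in 7 (median -0.05). Pias4, a SUMO ligase that restrains STAT activity, had signals of 481 ± 71.5 in siDNMT1 and 731 ± 148 in siNT (SD, n = 3), without overlap. Its difference was -0.59 (SE 0.19), with a limma adjusted p of 0.141 in the fit with the block and 0.0439 in that fit without repeat 2, which called 0.196% of all tested probe sets. Cish, a STAT5 target and inhibitor, differed by 0.37 (SE 0.19) and Pias2 by -0.26 (SE 0.20). Of 4 tested genes of ISG15 conjugation, the modification that USP18 reverses, 3 were higher (median 0.29, and 0.15 without control array 1). Ube2l6, the conjugating enzyme for ISG15, had signals of 40.3 ± 9.76 in siDNMT1 and 18.8 ± 7.83 in siNT (SD, n = 3), separated in every array, with a difference of 0.95 (SE 0.34). The ligase gene Trim25 differed by 0.32 (SE 0.21) and the activating enzyme gene Uba7 by 0.26 (SE 0.26).

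Kinases and adaptors upstream of IRF3 and IRF7 were higher in 6 and lower in 4 of 10 tested (median 0.03). Ikbke, encoding a kinase of IRF3 and IRF7, differed by 1.06 (SE 0.70), with 1.12, 2.39 and -0.32 in repeats 1, 2 and 3. Its signals were 38.1, 80.4 and 3.74 in siDNMT1 and 14.7, 11.1 and 5.97 in siNT. The siNT mean of 10.6 lay below the filter of 16.8, so only the siDNMT1 arrays brought this probe set into the test. The limma block fit without repeat 3 called it (1.77, adjusted p = 0.00411), among 0.966% of all tested probe sets, a call that is no support for a difference. The adaptor gene Myd88 differed by 0.30 (SE 0.20) and Azi2 by -0.31 (SE 0.23). Among 25 tested ISGF3 target genes 16 were higher and 9 lower (median 0.18). The median was 0.11 without control array 1, 0.12 without siDNMT1 array 2 and 0.29 without control array 2. The arrays did not overlap on 4 upwards, Ifi35, Zbp1, Psmb9 and Oasl2, and on 1 downwards, Dhx58. The block fit of limma without repeat 3 called Xaf1 and Oas2 higher (1.33 and 1.65, adjusted p = 0.000127 and 0.0400) and Rsad2 lower (-1.71, adjusted p = 0.000433), among 261 probe sets called in all (0.966%), against 23 with every repeat. In repeat 3 itself Xaf1 and Oas2 differed by 0.01 and -0.04 and Rsad2 by 0.73. Without repeat 2 the limma block fit called 53 in all (0.196%), among them Ifi35 (0.61, adjusted p = 0.0149).

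**Figure D4:**
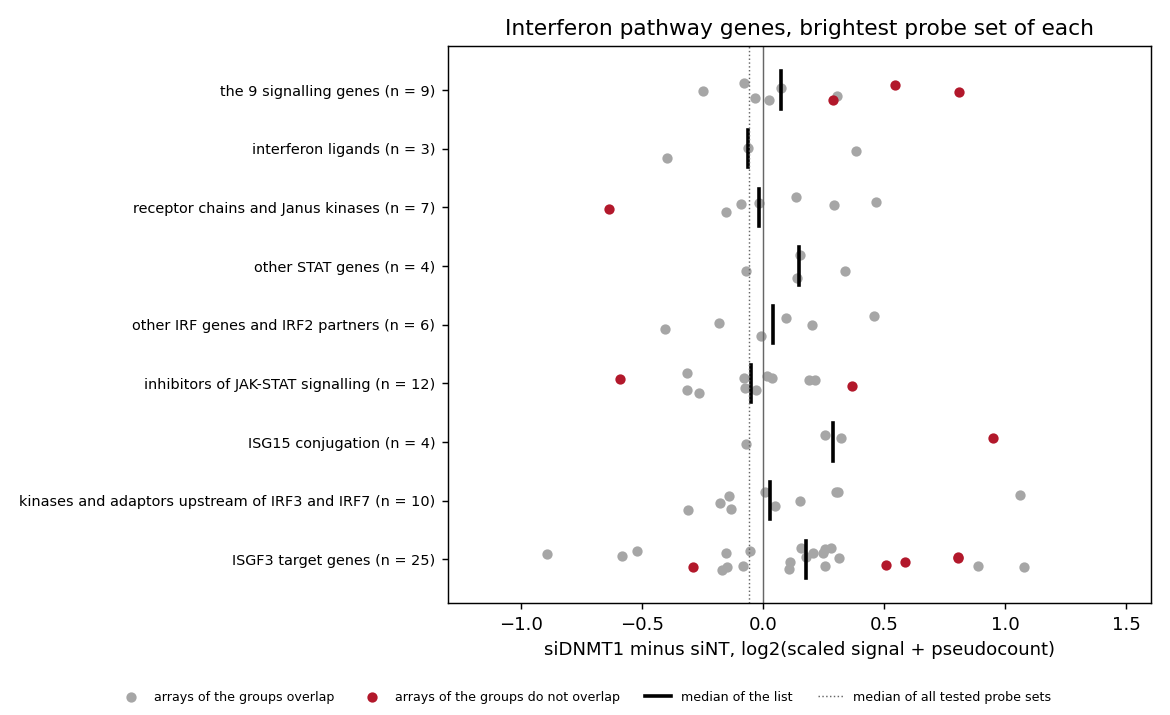
siDNMT1 minus siNT, log2(scaled signal + pseudocount), for the brightest tested probe set of each gene in the 9 signalling genes and in 8 pathway lists; red points mark genes whose siDNMT1 and siNT arrays did not overlap, bars the list medians and the dotted line the median of all tested probe sets. Medians run from -0.06 for the ligands to 0.29 for ISG15 conjugation, and Ube2l6 at 0.95, Irf9 at 0.81 and Pias4 at -0.59 are among the separated genes.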

How the data were processed

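Per the labels, total RNA of 6 AtT-20 cultures was biotin-labelled and put on 1 array each, 3 siDNMT1 and 3 siNT. The deposited values are linear signal intensities, 1 per probe set and array, made with GCOS per the submitters' processing notes; the sources used here do not state its version, settings or detection calls. Array medians differed, so arrays were brought to 1 common median on the log2 scale. A pseudocount of 5.29 (the 20th percentile) was added, and 27022 probe sets reaching a mean of 16.8 after scaling (the 40th percentile) were tested. Tests used limma 3.58.1 in R 4.3.3 (lmFit, eBayes with trend, two-sided, Benjamini-Hochberg over every tested probe set, threshold 0.05), without and with the repeat number as a block, and were tested on simulated data. Per the series design the 3 repeats were independent. Departures from the group mean correlated at 0.173, 0.231 and 0.257 between arrays of 1 repeat and at -0.18 to -0.03 between others, so the repeats pair the arrays. Exact permutation tests of 3 against 3 cannot go below 0.1, and the number of arrays limits precision. Symbols came from the platform annotation, and 0 changed by the GRCm38.p6 gene table. Alternatives were other scalings, pseudocounts and filters, eBayes without trend, the block, and leaving out arrays or repeats. Named are all probe sets of the 9 genes, Dnmt1, up to 3 genes of each pathway list with the smallest p, any listed gene past the threshold, and the 5 most like Irf9. Added after their values were seen were Oasl2, Dhx58, Xaf1, Oas2, Rsad2, Ptprc, Cd8a, Cd3e and the named fibroblast markers. Genes, lists and ratios were chosen with earlier results of these data known.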

Additional observations from a re-analysis of the deposited data

How the results depend on the processing

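With 3 arrays a group small differences are beyond reach, and without detection calls the signal over background of dim probe sets is unknown. Limma called 0 probe sets in all, 1 with trimmed mean scaling, 1 with quantile normalization, 2 without scaling, 1 with the stricter filter and 23 with the repeat number as a block. With the block it called 45 without repeat 1, 53 without repeat 2 and 261 without repeat 3, and 0 to 4 with 1 array left out and no block. Among the 9 genes the block alone changed no call, and 1 probe set, that of Usp18, was called with the block without repeat 3. In pathway lists the block called 1 JAK-STAT inhibitor and 1 ISGF3 target without repeat 2, and 1 upstream kinase and 3 ISGF3 targets without repeat 3. Dnmt1 passed the threshold with the block (-1.54, limma adjusted p = 0.0211) and also without repeat 1, 2 or 3 (-1.65, -1.17 and -1.79), and ran from -1.79 to -1.26 with 1 array left out. Separated probe sets with siDNMT1 higher, an alternative chosen after seeing the data, numbered 5 (2.96% of all tested probe sets), and 0 without scaling (1.13%). Ifnar2 1451462_a_at turned to 0.028 with trimmed mean scaling and 0.041 with quantile normalization. With 1 array left out, signs turned for Stat2 1450403_at (-0.10 to 0.14) and 1421911_at (-0.38 to 0.33), Irf2 (-0.32 to 0.13), Irf3 1426111_x_at (-0.069 to 0.24) and 1435271_at (-0.17 to 0.17), and Ifnar2 1451462_a_at (-0.23 to 0.10) and 1440169_x_at (-0.058 to 0.35). With the block and without repeat 1, the same Stat2 probe sets gave -0.085 and -0.59, Irf2 0.017, the same Irf3 probe sets -0.16 and -0.17, and Ifnar2 1427691_a_at 0.038 and 1440169_x_at -0.026. Without repeat 2, Ifnar2 1451462_a_at gave 0.22 and 1440169_x_at -0.041. Over all alternatives list medians ran from 0.11 to 0.29 for the ISGF3 targets, 0.15 to 0.42 for ISG15 conjugation, -0.40 to 0.17 for the ligands, -0.051 to 0.18 for receptor chains, -0.015 to 0.28 for other STAT genes, -0.16 to 0.31 for other IRF genes, -0.14 to 0.083 for the inhibitors and -0.093 to 0.11 for the upstream kinases. The causes were not tested. Irf9, Usp18, Irf1, Irf7, both Ifnar1 probe sets and Irf3 1416898_a_at kept their sign in all alternatives run on them.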
